A study of Mus musculus with 7 samples.

Results

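The Hedgehog pathway was followed through 9 genes in regenerating and intact mouse digits. They were the ligand genes Shh, Ihh and Dhh, the ligand receptor gene Ptch1, the ligand-binding protein gene Hhip, the signal transducer gene Smo, and the transcription factor genes Gli1, Gli2 and Gli3. The genes were chosen by symbol, and all 9 were measured among 22180 genes on the array, each by 1 probe set that listed no other gene. RNA of 4 uninjured digits and 3 blastemas was measured on 1-colour arrays, blastemas being the masses of cells that form on an amputated digit tip. All samples came from C57Bl/6 mice with no stated genetic change, and the blastemas were taken 2 weeks after amputation. The samples of a group are labelled as separate biological replicates. The sources used here do not give age, sex, the part of the uninjured digit taken or any pooling of digits.

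Hedgehog ligands are secreted proteins that carry lipid groups. Without ligand, Ptch1 holds Smo inactive, and Gli3 and Gli2 are cut into repressors. Ligand bound to Ptch1 frees Smo, which enters the primary cilium and lets the Gli proteins activate transcription. Ptch1, Hhip and Gli1 are themselves transcribed in response to the signal and commonly serve as its readouts, and the Ptch1 and Hhip proteins bind ligand and so damp the signal. In the limb, Shh patterns the early bud and later acts in hair and nail epithelium, Ihh is made by maturing chondrocytes and acts on cartilage and bone, and Dhh is made by Schwann cells of peripheral nerve.

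Levels are log2 values of probe sets, so a difference of 1 is a doubling. They compare arrays for 1 gene and not one gene with another. Array medians were 5.53 to 5.58. Read depth does not apply to arrays, and their number limits the precision. As a background proxy served the level under which 95% of 1105 olfactory receptor genes lay, 5.52. A gene counted as above the proxy, also in the filter, where the higher of its group means exceeded it. The uninjured digits and the blastemas both carried skin and nail RNA: all 12 measured nail and hair matrix markers and all 9 epidermal markers exceeded the proxy. The mean of the nail list was 10.78 to 11.24 in uninjured digits and 10.53 to 11.01 in blastemas. The 7 measured osteoblast markers averaged 5.63 to 6.57 and 8.89 to 9.38. Skeletal muscle markers averaged 5.26 to 5.43 and 5.26 to 5.40, near the proxy. Uninjured array 1 and blastema array 1 deviated together from their group means (r = 0.286 across genes, the highest of any such pair of arrays).

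By limma with Benjamini-Hochberg adjustment over all genes, Smo, Ptch1, Gli2 and Gli3 passed an adjusted p of 0.05 and were higher in the blastema. Gli1 was at a higher level and Hhip at a lower level there, and both missed the threshold. None of the ligand genes passed the test. Of the 9 members 4 were called, where 9.64% of all genes were. All 4 were higher (4.98% of all genes) and 0 lower (4.66%). At an unadjusted p under 0.05, 6 members passed, as did 24.9% of all genes. The groups did not overlap for 6 of the 9, where they did not for 21% of all genes, 5 of them higher in the blastema (10.4% of all genes) and 1 lower (10.6%). The median log2 fold change over the members was 0.45, against -0.0054 over all genes. Of these calls, that of Smo held in every setting tried, while Ptch1, Gli2 and Gli3 lay just inside the threshold, with Gli1 just outside. With the replicate number as a block in the limma fit, Ptch1 (adjusted p = 0.175), Gli2 (0.132) and Gli3 (0.168) did not pass. Without both arrays numbered 1, Smo (1.24, adjusted p = 0.00910), Ptch1 (0.59, 0.0140), Gli2 (0.81, 0.0388) and Gli3 (0.92, 0.0333) passed. Gli1 (0.57, 0.0721) and Hhip (-0.93, 0.0880) did not, nor did Shh (0.09, 0.486), Ihh (-0.19, 0.444) and Dhh (0.27, 0.292).

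**Figure D1:**
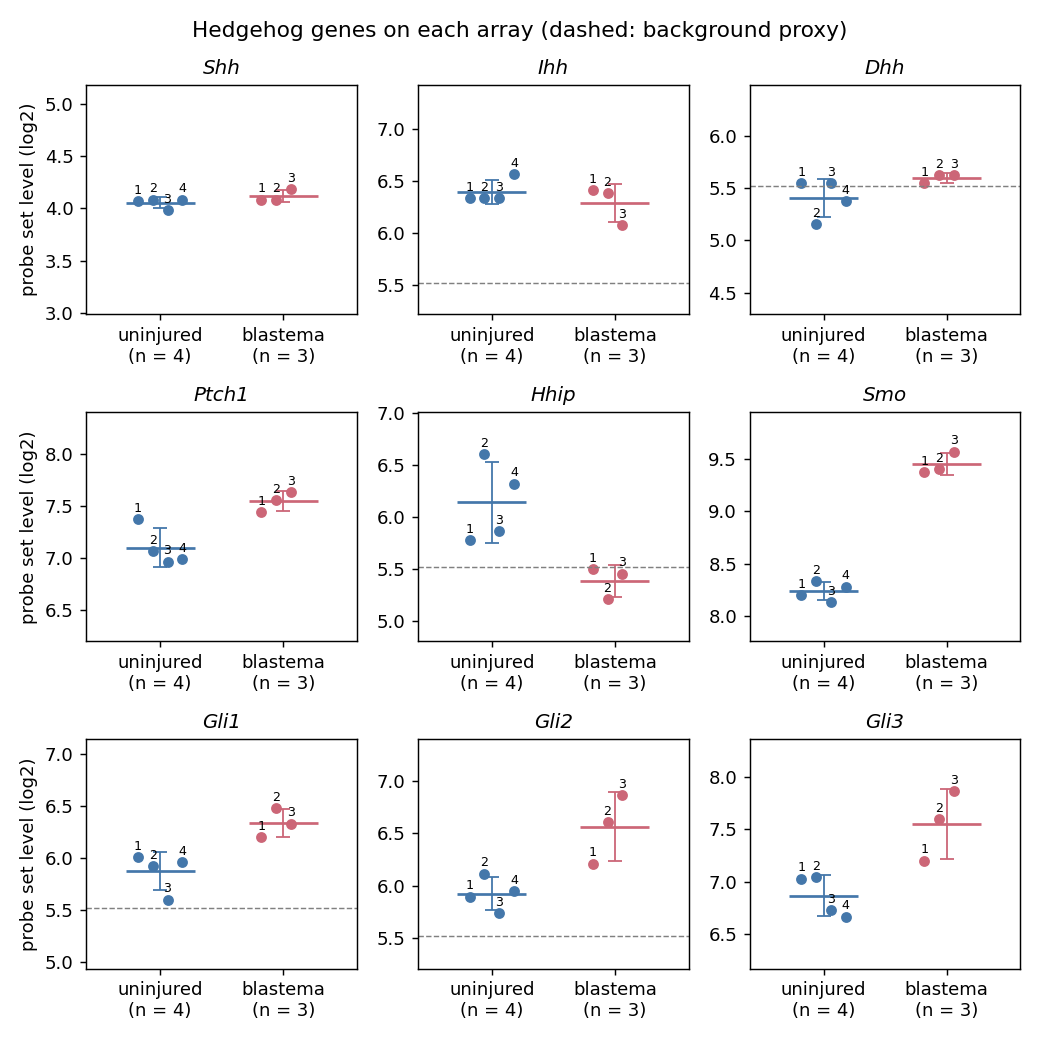
Level of each Hedgehog gene (log2, vertical axis) on each array, with uninjured digits in blue (n = 4) and blastemas in red (n = 3). Numbers are replicates, bars the mean with its SD, and the dashed line the background proxy of 5.52; every panel spans the same log2 range. The 3 blastema points lie above all uninjured points for Ptch1, Smo, Gli1, Gli2 and Gli3, and below them for Hhip.

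RefSeq sequence upstream of the start site is shown for 4 members that the results turn on: Smo, which changed most, Gli2, and the commonly used readouts Ptch1 and Hhip, which differed in opposite directions. Each is the stretch of 250 bases just before the annotated start, written 5′ to 3′ along the gene's own strand, in build GRCm38.p6. The stretches are chr6:29735247-29735496 (plus strand), chr1:119053620-119053869, chr13:63565736-63565985 and chr8:80058009-80058258 (minus strand). Capitals mark CCACCC or its reverse complement GGGTGG, a core of the Gli binding consensus GACCACCCA that also belongs to the CACCC boxes bound by other zinc finger factors.
Smo: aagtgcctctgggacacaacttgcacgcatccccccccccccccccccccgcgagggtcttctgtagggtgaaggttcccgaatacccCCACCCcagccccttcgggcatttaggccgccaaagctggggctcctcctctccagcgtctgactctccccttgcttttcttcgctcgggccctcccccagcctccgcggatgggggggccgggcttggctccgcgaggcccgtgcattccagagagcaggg
Gli2: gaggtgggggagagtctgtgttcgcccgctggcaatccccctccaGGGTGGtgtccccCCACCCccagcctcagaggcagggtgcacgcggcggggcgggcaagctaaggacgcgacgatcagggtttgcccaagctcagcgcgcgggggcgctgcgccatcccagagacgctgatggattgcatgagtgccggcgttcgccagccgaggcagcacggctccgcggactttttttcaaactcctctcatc
Ptch1: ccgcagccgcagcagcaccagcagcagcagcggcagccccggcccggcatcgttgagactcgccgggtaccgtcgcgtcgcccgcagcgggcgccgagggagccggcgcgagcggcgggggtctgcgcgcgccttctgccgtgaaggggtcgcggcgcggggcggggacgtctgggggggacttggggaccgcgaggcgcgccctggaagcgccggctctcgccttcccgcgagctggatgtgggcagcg
Hhip: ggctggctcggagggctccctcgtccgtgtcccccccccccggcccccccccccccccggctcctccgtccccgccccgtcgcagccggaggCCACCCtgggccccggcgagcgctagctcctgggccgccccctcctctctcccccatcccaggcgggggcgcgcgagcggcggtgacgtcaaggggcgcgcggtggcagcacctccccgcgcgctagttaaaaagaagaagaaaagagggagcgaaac
Of the 9 members 7 had an entry in the RefSeq table, and Shh and Gli1 did not. The full consensus GACCACCCA, searched on both strands, was in none of the 7 windows and in 0.225% of all 32851 windows of this length. The shorter ACCACCC, part of the consensus, was in 1 of the 7, that of Gli2, and in 3.92% of all windows. CCACCC, contained in both, was in 6 of the 7, all but Ptch1, and in 28.1% of all windows. The windows shown were rich in CpG, with 41 CpG in that of Ptch1, 28 in Hhip, 22 in Gli2 and 15 in Smo, against a median of 6 over all windows. These matches describe the letters of the windows only.

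None of the 3 ligand genes passed the test. Shh, the ligand of the limb bud and of hair and nail epithelium, lay at 4.07, 4.08, 3.98 and 4.08 on uninjured arrays 1 to 4 and at 4.08, 4.08 and 4.19 on blastema arrays 1 to 3. All 7 values were under the background proxy, so low signal limits this comparison, and its difference was 0.06 (95% interval -0.08 to 0.21, limma adjusted p = 0.57). Another probe set lists Shh together with a second transcript and was not used. The nail and hair matrix list covers tissue in which Shh is known to act. It had 1 of 12 genes lower (4.66% of all genes) and 0 higher (4.98%), with a median log2 fold change of -0.10. That gene was Krt35, a keratin gene of hair and nail (-1.28, limma adjusted p = 0.0260), which is named after its value was seen.

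Ihh, the ligand of maturing chondrocytes, lay at 6.34, 6.34, 6.34 and 6.57 in uninjured digits and at 6.41, 6.38 and 6.07 in blastemas, above the proxy on every array. The groups overlapped, and the difference of -0.11 had a 95% interval of -0.35 to 0.14 (limma adjusted p = 0.581). Uninjured arrays 1 to 3 shared the same value, so that interval can be too narrow to set an upper limit on an increase. Over the omissions of 1 array the difference ran from -0.17 to -0.0002, the latter without blastema array 3. Dhh, the Schwann cell ligand, lay at 5.55, 5.15, 5.55 and 5.38 in uninjured digits and at 5.55, 5.62 and 5.63 in blastemas, on either side of the proxy. Its difference was 0.19 (95% interval -0.05 to 0.44, limma adjusted p = 0.312), and uninjured arrays 1 and 3 reached the lowest blastema value. Of the 9 measured Schwann cell markers 0 were higher (4.98% of all genes) and 1 lower (4.66%), with list means of 6.18 to 6.35 and 6.17 to 6.21. The lower one was the neuregulin receptor gene Erbb3 (-0.59, limma adjusted p = 0.0341). Differences were positive in 3 of the 9 and negative in 6. Pmp22 was higher without overlap and not called (0.43, 0.146). Sox10 and S100b, defining genes of that lineage, had means of 5.55 and 5.05 in uninjured digit and 5.50 and 4.91 in blastema, near or under the proxy. Erbb3, Pmp22, Sox10 and S100b are named after their values were seen.

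The ligand genes carry repeated values. Shh was equal to 6 decimals on 4 arrays, and Ihh and Dhh each on 3, while no such repeat occurred in the other 6 members. Values equal on 3 or more arrays were found in 6546 of all genes (29.5%). The spread between replicates of these 3 genes can therefore be understated, and with it the width of their intervals.

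Smo, the transmembrane protein that passes the signal on when Ptch1 releases it, rose most. It lay at 8.20, 8.33, 8.13 and 8.28 in uninjured digits and at 9.38, 9.41 and 9.57 in blastemas. Its lowest blastema value was 1.05 above its highest uninjured value, while each group spanned 0.197. The rise was 1.22 ± 0.08 (SE) on the log2 scale, or 2.33-fold (95% interval 1.04 to 1.40 on the log2 scale, limma adjusted p = 0.00126). By p-value Smo was number 11 of the 22180 genes. It passed in all 16 alternative settings tried, the omission of each array among them, with log2 fold changes of 1.07 to 1.26.

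Ptch1, the ligand receptor and a common readout of the signal, lay at 7.37, 7.07, 6.97 and 6.99 in uninjured digits and at 7.44, 7.56 and 7.64 in blastemas. Uninjured array 1 came within 0.07 of the lowest blastema, and the other uninjured arrays lay well below it. The rise was 0.45 ± 0.11 (SE), or 1.36-fold (95% interval 0.19 to 0.71, limma adjusted p = 0.0488). Of the 7 omissions of 1 array, only that of uninjured array 1 kept the call (0.54, adjusted p = 0.0118). The other omissions gave adjusted p of 0.0648 to 0.172.

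Hhip, which binds Hedgehog ligands at the cell surface and is likewise induced by the signal, differed the other way. It lay at 5.78, 6.60, 5.87 and 6.32 in uninjured digits and at 5.50, 5.21 and 5.46 in blastemas. All 4 uninjured values were above the background proxy and all 3 blastema values under it, so the lower group is near the limit of the signal. The difference was -0.75 ± 0.20 (SE), with a 95% interval of -1.23 to -0.27 and a limma adjusted p of 0.065, which did not pass. It passed without uninjured array 1 (-0.87, adjusted p = 0.0492), while the other omissions gave 0.0872 to 0.207. It also passed when dim genes were left out (limma adjusted p = 0.0421) or genes under the proxy (0.0348). The latter filter kept Hhip through its uninjured mean of 6.14 alone, the blastema mean being 5.39, so that pass adds no support. Hhip passed too when arrays were scaled to their median (0.0462) or to reference genes (0.00934). Uninjured arrays 2 and 4 had the higher Hhip levels. The same arrays had the higher means of 6 marker lists. Those of the endothelial list were 6.59 and 6.60 against 6.09 and 6.28 on arrays 1 and 3, and those of the chondrocyte list 5.80 and 5.82 against 5.56 and 5.39. The osteoblast means were 6.57 and 6.54 against 6.16 and 5.63, and the fibroblast means 8.56 and 8.36 against 8.29 and 7.73. The macrophage means were 6.63 and 6.53 against 6.45 and 6.35, and the sweat gland means 6.24 and 6.53 against 6.12 and 5.96. In blastemas the sweat gland means were 5.91 to 5.96, with 2 of 9 genes lower (4.66% of all genes) and 0 higher (4.98%). Those lower were Aqp5 (-1.11, limma adjusted p = 0.00534) and Scgb1a1 (-0.84, 0.0486), named after their values were seen. Neither had its higher levels on uninjured arrays 2 and 4. On uninjured arrays 1 to 4 Aqp5 lay at 7.96, 8.17, 8.47 and 8.55, and Scgb1a1 at 6.04, 6.39, 5.65 and 5.57. Atp1b1 of that list lay at 6.24, 6.77, 5.88 and 8.77 and is also named after its value was seen. The other 5 lists had higher means in every blastema than in any uninjured digit. The part of these cell types in the Hhip values was not tested.

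**Figure D2:**
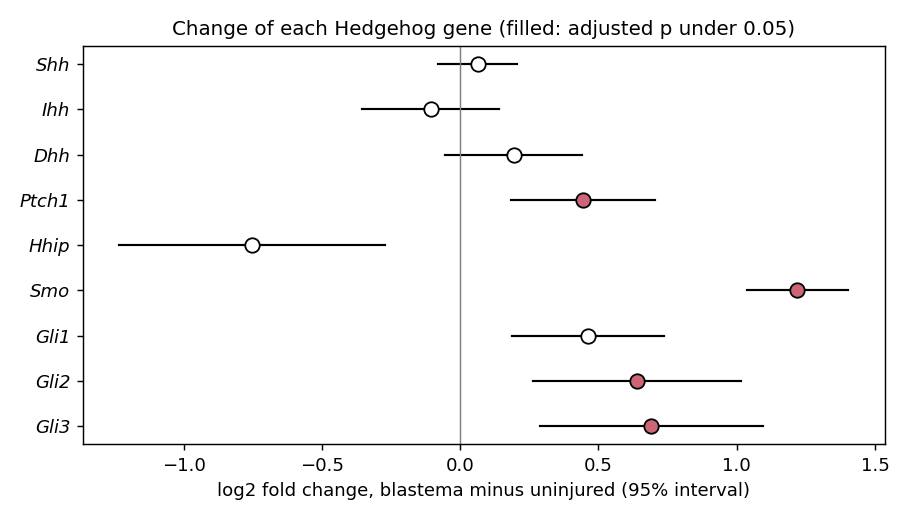
Log2 fold change of each Hedgehog gene, blastema (n = 3) minus uninjured digit (n = 4), on the horizontal axis, with the 95% interval of the limma fit as a line. Filled points passed an adjusted p of 0.05: Smo at 1.22, Gli3 at 0.69, Gli2 at 0.64 and Ptch1 at 0.45, while Gli1 at 0.46 and Hhip at -0.75 did not.

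The Gli genes were all higher in the blastema without overlap, and 2 of the 3 passed. Gli1, an activator whose own transcription depends on the signal, lay at 6.01, 5.93, 5.60 and 5.97 in uninjured digits and at 6.21, 6.48 and 6.33 in blastemas. Its difference of 0.46 ± 0.12 (SE), or 1.38-fold, had a 95% interval of 0.19 to 0.74 and a limma adjusted p of 0.051. It did not pass in any of the 7 omissions of 1 array (adjusted p = 0.0582 to 0.170). It passed in 4 of the 16 settings, with dim genes left out (0.0326), genes under the proxy left out (0.0275), a variance trend (0.0453) or median scaling (0.0496).

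Gli2, the main activator of the signal in many tissues, lay at 5.89, 6.11, 5.74 and 5.95 in uninjured digits and at 6.21, 6.61 and 6.87 in blastemas. The rise was 0.64 ± 0.16 (SE), or 1.56-fold (95% interval 0.26 to 1.02, limma adjusted p = 0.0494). Gli3, whose protein acts largely as a repressor in the limb, lay at 7.03, 7.04, 6.72 and 6.66 in uninjured digits and at 7.20, 7.60 and 7.87 in blastemas. The rise was 0.69 ± 0.17 (SE), or 1.61-fold (95% interval 0.29 to 1.09, limma adjusted p = 0.0486). In both genes blastema array 1 was lowest and array 3 highest. Without blastema array 1 the rises were 0.82 (adjusted p = 0.0159) for Gli2 and 0.87 (0.0211) for Gli3. Neither passed in the other omissions of 1 array, with adjusted p of 0.0780 to 0.156 for Gli2 and 0.0706 to 0.154 for Gli3.

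Scaling each array to 7 reference genes moved the median of all genes from -0.0054 to -0.151, and the calls from 1105 higher and 1034 lower to 661 and 1757. Under it the members differed by 1.07 (Smo), 0.54 (Gli3), 0.49 (Gli2), 0.32 (Gli1) and 0.30 (Ptch1). Smo alone of these passed, with adjusted p of 0.0797 for Gli3, 0.0677 for Gli2, 0.215 for Gli1 and 0.262 for Ptch1. The mean of the reference genes was 9.72 on uninjured array 1, against 9.97 to 9.98 on the other uninjured arrays and 9.99 to 10.11 on blastemas. The group difference of these means, which the scaling takes off, was 0.146, and 0.0812 without uninjured array 1. Gapdh, one of the reference genes and named after its value was seen, was itself called higher (0.31, limma adjusted p = 0.0191). That was its brightest probe set. In the limma fit over every probe set, its others differed by 0.25 (adjusted p = 0.0447) and, the dimmest, by -0.02 (0.913). Median scaling moved the all-gene median to -0.0406 and left Gli2 just outside (0.60, adjusted p = 0.0509).

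**Figure D3:**
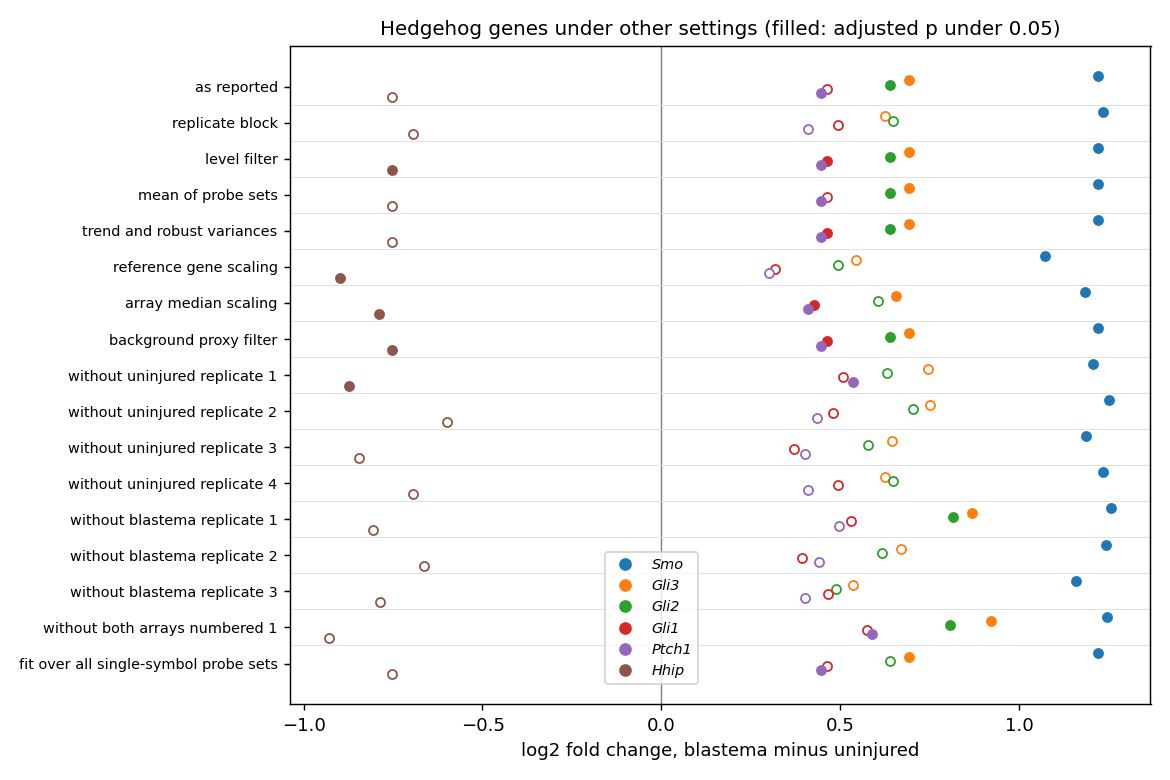
Log2 fold change (horizontal axis) of 6 Hedgehog genes as reported and under 16 other settings (vertical axis), with filled points where the adjusted p was under 0.05. Smo is filled in every row, between 1.07 and 1.26, while Ptch1, Gli2, Gli3, Gli1 and Hhip keep their sign and are filled in some rows only.

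Some lists of cell type markers were higher alongside these rises. Over all genes, 4.98% were called higher and 4.66% lower. Of 8 fibroblast markers 4 were higher and 0 lower, with list means of 7.73 to 8.56 in uninjured digits and 9.31 to 9.84 in blastemas. All 7 osteoblast markers were higher. Of 10 chondrocyte markers 4 were higher and 0 lower, with means of 5.39 to 5.82 and 6.15 to 6.38. The chondrocyte differences were positive in 7 genes and negative in 3, with a median of 0.27. Of 8 endothelial markers 2 were higher, with means of 6.09 to 6.60 and 6.71 to 7.24, and of 7 macrophage markers 4, with means of 6.35 to 6.63 and 6.92 to 7.29. Among the genes called higher, and named after their values were seen, were Acan (2.76, limma adjusted p = 0.00481) and Hapln1 (1.97, 0.0239), which encode cartilage matrix proteins, the collagen gene Col1a2 (3.35, 0.00173) and the endothelial cadherin gene Cdh5 (1.28, 0.0235). The uninjured mean of Hapln1 was 5.22, under the proxy. Of the chondrocyte list, Col9a2 (-0.01, limma adjusted p = 0.944) and Snorc (-0.21, 0.226), likewise named after their values were seen, were not called. On blastema array 1, where Gli2 and Gli3 were lowest of the blastemas, the fibroblast mean was 9.31 against 9.83 and 9.84. The osteoblast mean there was 8.89 against 9.38 and 9.25, the endothelial 6.71 against 7.09 and 7.24, and the macrophage 6.92 against 7.14 and 7.29. The chondrocyte mean was 6.15 against 6.29 and 6.38, and the epidermal 9.86 against 10.23 and 10.04, so that these 6 means were lowest on that array, while the nail and hair mean was highest there (11.01). The epidermal list had 4 of 9 genes lower, with means of 10.59 to 10.89 and 9.86 to 10.23. The part of these cell types in the rises of Smo, Ptch1, Gli2 and Gli3 was not tested. In bulk tissue, fewer cells of a type and less RNA per cell cannot be told apart.

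Genes that process or release Hedgehog ligands were higher more often than lower. Of 10 measured, 4 rose (4.98% of all genes did) and none fell (4.66%), all 10 had positive differences, and the median log2 fold change was 0.27. Ext1, an enzyme that extends the heparan sulfate chains on which Hedgehog proteins travel, rose by 0.80 ± 0.17 (SE, limma adjusted p = 0.0301). Scube1, a secreted protein of a family that helps release ligand, rose by 0.73 ± 0.13 (0.0138), and Hhat, which attaches palmitate to the ligands, by 0.51 ± 0.13 (0.0468). Disp1, the transporter that releases lipid-bearing ligand, rose by 0.29 ± 0.06 (0.0324) and is named after its value was seen. Of the omissions of 1 array, that of blastema array 1 alone kept Ext1 (adjusted p = 0.00749), Hhat (0.0211) and Disp1 (0.0300). The others gave 0.0646 to 0.105, 0.0576 to 0.167 and 0.0535 to 0.114. Scube1 lost its call without blastema array 2 (0.0655) or 3 (0.0649).

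Co-receptor and ligand-binding genes showed little common movement. Of 7 measured 1 rose and none fell, against 4.98% and 4.66% of all genes, and the median was 0.0037. Gpc6, a glypican that carries heparan sulfate, rose by 0.75 ± 0.18 (SE, limma adjusted p = 0.0401), and without any array but blastema array 1 (0.0130) it did not pass (0.0604 to 0.150). The co-receptor genes, named after their values were seen, differed by -0.26 (Cdon, adjusted p = 0.411), 0.23 (Boc, 0.244) and -0.21 (Gas1, 0.186). Gpc3, whose protein competes with Ptch1 for ligand, differed by -0.58 (0.0713), again named after its value was seen.

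The genes that act between Smo and the Gli factors were called about as rarely as genes in general. Of 20 intracellular regulators 1 rose and none fell, where 4.98% of all genes rose and 4.66% fell, the median being 0.03. Sufu, which holds Gli proteins in the cytoplasm, differed by 0.04 (limma adjusted p = 0.687), being named after its value was seen. It had the same value, 7.05, on all 4 uninjured arrays and on blastema array 2, so its spread between replicates can be understated. The one that rose was Prkar1a, a regulatory subunit of protein kinase A, the kinase that marks Gli proteins for cutting, by 0.31 ± 0.07 (SE, limma adjusted p = 0.0399). Of 17 genes of the primary cilium and its transport none rose and 1 fell, again near those shares, the median being -0.06. That gene was Ift52, a subunit of the transport particle (-0.31 ± 0.08, limma adjusted p = 0.0447). Omissions of 1 array kept Prkar1a only without blastema array 1 (adjusted p = 0.0326, otherwise 0.0682 to 0.123). They kept Ift52 only without uninjured array 4 (0.0484, otherwise 0.0717 to 0.126).

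**Figure D4:**
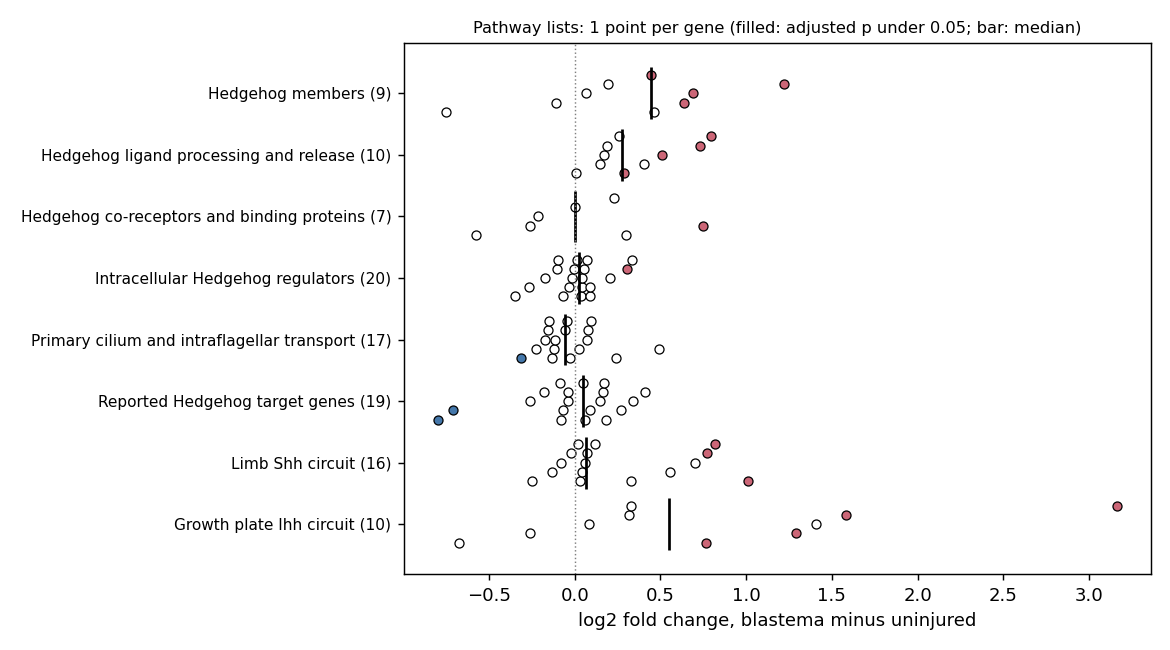
Log2 fold change (blastema minus uninjured digit, horizontal axis) of every measured gene in 8 Hedgehog lists, with the number of genes in brackets, the list median as a bar, and genes with an adjusted p under 0.05 filled red (higher) or blue (lower). The medians of the members (0.45), of ligand processing (0.27) and of the growth plate list (0.55) lie to the right of those of the other lists, which run from -0.06 to 0.07.

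None of the genes reported elsewhere as Hedgehog targets was called higher, in a list that leaves out the members Ptch1, Gli1 and Hhip. The median over the 19 measured was 0.05, with 0 higher (4.98% of all genes) and 2 lower (4.66%). Differences were positive in 10 and negative in 9, and 13 of the 19 exceeded the proxy. Rab34 (0.41, limma adjusted p = 0.129) and Foxf2 (0.34, 0.0727) were higher without overlap but not called, Foxf2 being under the proxy. Both are named after their values were seen. Ccnd1, the cyclin D1 gene of the early cell cycle, fell by 0.71 on the log2 scale (SE 0.12, limma adjusted p = 0.0117) and passed in all 16 settings. It lay at 9.13, 9.54, 9.38 and 9.34 in uninjured digits and at 8.45, 8.76 and 8.70 in blastemas. Igfbp6, which binds insulin-like growth factors, fell by 0.80 on the log2 scale (SE 0.17, adjusted p = 0.0299). It passed only without uninjured array 1 (0.0252) among the omissions, the others giving 0.0501 to 0.0875. Mycn (-0.04, adjusted p = 0.756) and Foxf1 (-0.04, 0.949), transcription factor genes named after their values were seen, did not pass, and Mycn was under the proxy in both groups.

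Some genes of the limb bud circuit around Shh were higher although Shh itself was near background. The median over the 16 measured was 0.07, with 3 higher (4.98% of all genes) and 0 lower (4.66%). Hoxa13, a homeobox gene of the digit region, rose by 0.77 ± 0.11 (SE, limma adjusted p = 0.00735), and Grem1, a secreted BMP antagonist that links Shh to limb FGFs, by 0.82 ± 0.15 (0.0193). Hoxd13 rose by 1.01 ± 0.22 (0.0326). In uninjured digits Grem1 lay under the proxy on every array (4.77 to 5.47), and Hoxa13 on either side of it (5.33 to 5.67). Low signal there limits what can be said of the size of the Grem1 and Hoxa13 rises. Hand2, an inducer of Shh in the bud, differed by -0.02, and Fgf4 and Fgf8, its FGF partners, by 0.02 and 0.04, all named after their values were seen and none called, with Fgf8 under the proxy and Fgf4 at it. Hoxa13 passed in every omission of 1 array and Hoxd13 only in that of blastema array 1 (0.00350, otherwise 0.0576 to 0.125). Grem1 kept its call without uninjured array 1, 2 or 3, and lost it without any of the others (0.0832 without blastema array 3).

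The growth plate list, the setting in which Ihh is known to act, held the largest rise of the 8 lists. The median over the 10 measured was 0.55, with 4 higher (4.98% of all genes) and 0 lower (4.66%). Panx3, a channel protein of hypertrophic cartilage and bone, lay at 4.89, 5.59, 4.78 and 5.01 in uninjured digits and at 7.70, 8.67 and 8.31 in blastemas. It rose by 3.16 ± 0.27 (SE, limma adjusted p = 0.00181), all uninjured values but that of array 2 being under the proxy. Mef2c, a transcription factor of chondrocyte hypertrophy, rose by 1.58 ± 0.22 (0.00682). A second, dimmer Mef2c probe set rose by 0.64 (limma adjusted p = 0.0465 in the fit over every probe set). The mean of the Mef2c probe sets rose by 1.11. Pth1r, the receptor for the parathyroid hormone related protein that Ihh induces, rose by 1.29 ± 0.19 (0.00756). All 3 passed in each omission of 1 array, and Pth1r did not with the replicate number as a block (0.0523). Sox9, the cartilage factor, rose by 0.77 ± 0.17 (0.0298), is named after its value was seen, and kept its call only without uninjured array 1 (0.0279) or blastema array 2 (0.0365), otherwise 0.0684 to 0.115. Col10a1, the collagen of hypertrophic cartilage, differed by 1.41 ± 0.54 (0.161), also named after its value was seen. Differences were positive in 8 of the 10 genes and negative in 2, Fgfr3 and Sox6, both named after their values were seen. Fgfr3 was lower without overlap and just missed the threshold (-0.67, limma adjusted p = 0.0505). Sox6 differed by -0.26 (0.418). Osteoblasts express some of these genes too, and the osteoblast and chondrocyte means given above were higher alongside.

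The genes whose array pattern lay nearest to that of each called member were ranked over 12254 genes above the proxy, by the root mean square difference of log2 values centred over the 7 arrays. Nearest to Smo were Cyb5r3, a reductase gene (0.0875), Cacna1c, a calcium channel subunit gene (0.0962), and Bmp1, a procollagen protease gene (0.100). Nearest to Ptch1 were the pericyte proteoglycan gene Cspg4 (0.0360), Afap1 (0.0403) and the laminin chain gene Lamb1 (0.0413). Nearest to Gli3 were Wnt5a, a secreted Wnt ligand gene (0.0523), Cers6 (0.0660) and the cathepsin gene Ctsb (0.0801). Nearest to Gli2 were Scamp5 (0.0567), Adamtsl3 (0.0641) and Xpr1 (0.0692). Wnt5a lay at 6.94, 6.97, 6.65 and 6.56 in uninjured digits and at 7.10, 7.46 and 7.63 in blastemas, so that uninjured arrays 3 and 4 were low and blastema array 1 lowest of its group, as in Gli3. Its difference was 0.62 (limma adjusted p = 0.0518), which did not pass. Such likeness over 7 arrays describes these samples and was not tested.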

How the data were processed

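Total RNA (400 ng per sample) from 4 uninjured digits and 3 blastemas was labelled for 1-colour arrays, as the labels' protocols state. The deposited log2 values were made by the authors with the R package oligo and RMA, per the submitters' processing notes. That method normalizes between arrays, so a global change would not show. The sources used here give no versions, settings or array design, and the table held 0 columns of other samples.

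Genes came from the 23521 of 41345 probe sets to which the platform annotation gave 1 symbol (1814 had several, 16010 none), the brightest over the 7 arrays per gene. The test was limma 3.58.1 in R 4.3.3 (lmFit, then eBayes with defaults) of blastema against uninjured digit with no covariate, two-sided, adjusted by Benjamini-Hochberg over 22180 genes and called under 0.05. Log2 fold changes are differences of group means, blastema minus uninjured. The step was tested on simulated data. Figures used Python 3.11.15 and matplotlib 3.10.9.

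The members, lists and tests were chosen with earlier results of these data known. Named genes are the members, up to 3 called genes per list by absolute change, and the 3 genes nearest in pattern to each called member, a search that left out predicted genes, clones, sensory receptors and small RNAs. Genes outside this rule are marked as named after their values. Alternatives were a replicate block, a filter leaving out the dimmest 30% of genes, the mean of probe sets, a variance trend with robust fitting, reference gene and median scaling, the proxy as a filter, a fit over every probe set, and omission of single arrays or of both numbered 1.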

Additional observations from a re-analysis of the deposited data

Results flagged for a closer look

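In 4 of the 45 genes examined for it, 1 of the 4 uninjured arrays lay far from the others by Dixon's criterion, which chance meets in about 1 group in 20. Shh was 3.98 on uninjured array 3, against 4.07 to 4.08 on the others, all under the background proxy. Ihh was 6.57 on uninjured array 4, where the other 3 arrays shared the value 6.34. Boc was 7.02 on uninjured array 1, against 7.26 on the others, and Lamb1 was 8.33 on uninjured array 1, against 7.91 to 7.94. Groups of 3 were not tested.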

How the results depend on the processing

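Over 16 alternative settings, 6 members (Smo, Ptch1, Gli1, Gli2, Gli3 and Hhip) and the ligands Ihh and Dhh kept their sign, and Shh turned to -0.083 under reference gene scaling. Smo and, of the other lists, Ccnd1, Panx3 and Mef2c were called in all 16. With the replicate number as a block (replicate block), 1 member was called (Smo, 1.23, adjusted p = 0.0363), genes higher and lower in all numbered 295 and 304, and ligand processing, co-receptor, intracellular, cilium and limb lists had 0 calls, and Pth1r lost its call (0.0523). Deviations of same-numbered arrays correlated at 0.286, 0.151 and -0.0651 across genes, the first 2 being the highest of any uninjured array with any blastema array. Uninjured array 3 was closer to blastema array 1 (0.0578) than to blastema array 3. The numbers were not taken as pairs in the main test, and a shared origin by number was not tested. Reference gene scaling gave 661 higher and 1757 lower genes, 1 member higher and 1 lower (Hhip), 2 ligand processing genes higher, 0 co-receptor genes higher and 1 lower, 0 intracellular genes higher, 2 cilium genes lower and 1 growth plate gene lower. Median scaling gave 1 member lower, 2 ligand processing genes higher, 1 co-receptor gene lower, 0 intracellular genes higher and 1 lower, and 1 growth plate gene lower. The level filter and the proxy filter, which test fewer genes, each gave 1 member lower, 1 co-receptor and 1 growth plate gene lower and 2 intracellular genes higher, and the proxy filter 1 intracellular gene lower. The member lower in both was Hhip, which the proxy filter kept through its uninjured mean alone. The variance trend and the omission of both arrays numbered 1 gave 1 growth plate gene lower. Sufu turned to -0.11 under reference gene scaling, and Foxf1 to 0.18 without both arrays numbered 1 and over the omissions of 1 array ran from -0.22 to 0.15, at 0.06 without uninjured array 3. Omitting 1 array at a time gave 457 to 1286 higher and 365 to 1009 lower genes and 1 to 3 members higher and 0 to 1 lower. It gave 0 to 5 ligand processing genes, 0 to 1 co-receptor genes, 0 to 1 intracellular genes and 1 to 3 limb genes higher. Cilium genes ran at 0 to 1 in either direction, target genes at 0 to 1 higher and 1 to 2 lower, and intracellular and growth plate genes at 0 to 1 lower. Beside the reference gene means given above, the causes of these shifts were not tested. No member had a second single-symbol probe set, so other probe sets could give no value. Shh, Dhh and the blastema level of Hhip lie at or under the background proxy, where signal limits what could be seen.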
